A study of Mus musculus with 166 samples.

Results

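The ageing of the cerebellum was followed in Q140 mice, which carry a normal Htt allele beside a knocked-in allele whose human exon holds about 140 CAG repeats, the mutation class of Huntington disease. The Q140 libraries of 10 months were compared with those of 2 months, and the 6-month libraries served as a midpoint. Libraries with Htt (ENSMUSG00000029104) under 150 CPM (the count scaled to a common library total) were left out, so 20 of the 23 Q140 libraries, of 166 libraries in the series, were used: 5 of 8 at 2 months, 8 of 8 at 6 months and 7 of 7 at 10 months. Each library is poly(A) RNA from the cerebellum of a mouse on the C57BL/6 background. By the labels it is a heterozygote housed with Q140 heterozygotes, whereas the study's methods describe cages that mixed heterozygous and WT mice. The libraries used came from 3 females and 2 males at 2 months, 4 and 4 at 6 months, and 3 and 4 at 10 months. WT mice, the littermates of the Q20 line with 2 normal alleles, and Q20 heterozygotes, whose knocked-in allele has about 20 repeats, were sampled at the same ages and served as controls. After the same Htt rule, 44 of their 48 libraries remained (WT 5, 8 and 8, and Q20 8, 7 and 8 at 2, 6 and 10 months). Q140 is a single knock-in line, from which the Q175 line later arose by expansion of the repeat, and the mice differ from controls in the allele from birth.

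Huntingtin is made in all cells, and the mutation damages the striatum first, while the cerebellum is regarded as relatively spared. Myelin is formed by oligodendrocytes, whose membranes are built from proteins such as Mbp, Mobp and Mal. Interferon-inducible genes are switched on by interferon signalling through Irf9 and Irf7 and encode antiviral proteins, and microglia, the macrophages of the brain, carry the complement and lysosomal genes that are known to rise with age.

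Htt, which set the selection, is given as a description. At 2 months it stood at 227, 225, 227, 151 and 215 CPM in the libraries F1, F3, F4, M1 and M2 (F female, M male). The lowest, median and highest values were 204.5, 248 and 273 CPM at 6 months and 220.4, 257 and 263 CPM at 10 months. M1 of 2 months lay just inside the limit, and the 3 libraries left out, all of 2 months, had 137.8, 129.1 and 80.7 CPM. These libraries had lost long transcripts. For the length index, each gene's log2 level was taken relative to its median over all libraries of the series. The index is the median of the longest 20% of genes minus that of the shortest 20%. It was -0.745, -0.862 and -2.10 in the 3 left out and -0.671 in M1, against -0.161 to 0.167 in the other 19 Q140 libraries. Control libraries kept in the fit also reached low values. The lowest were -0.437 in WT at 2 months, -0.492 in Q20 at 6 months and -0.355 in WT at 10 months. M1 therefore shares what the excluded libraries show, and results are given with and without it where it mattered. Library totals were 28248612 to 41372973 in the fit, and serial numbers of the libraries run in separate ranges for each age, so age and library series cannot be told apart within a line. Purkinje cell gene Pcp2 stood at 149.5 to 337 CPM and the granule cell glutamate receptor gene Grm4 at 172 to 414 CPM in all 20 libraries, so defining markers of cerebellum were present. Ttr is a choroid plexus gene. At 2, 6 and 10 months it exceeded 100 CPM in 2 of 5, 5 of 8 and 5 of 8 WT libraries. In Q20 it did so in 4 of 8, 5 of 7 and 7 of 8 libraries. In Q140 it did so in 3 of 5, 3 of 8 and 1 of 7 libraries. The 6-month library F3 stood apart in the list of forebrain, thalamus and brainstem genes, with a summed level of 350.6 CPM against a group median of 147.6 CPM. In F3 the forebrain gene Nrgn reached 61.0 CPM, and in the other 7 libraries of that age it did not pass 1.72 CPM.

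**Figure D1:**
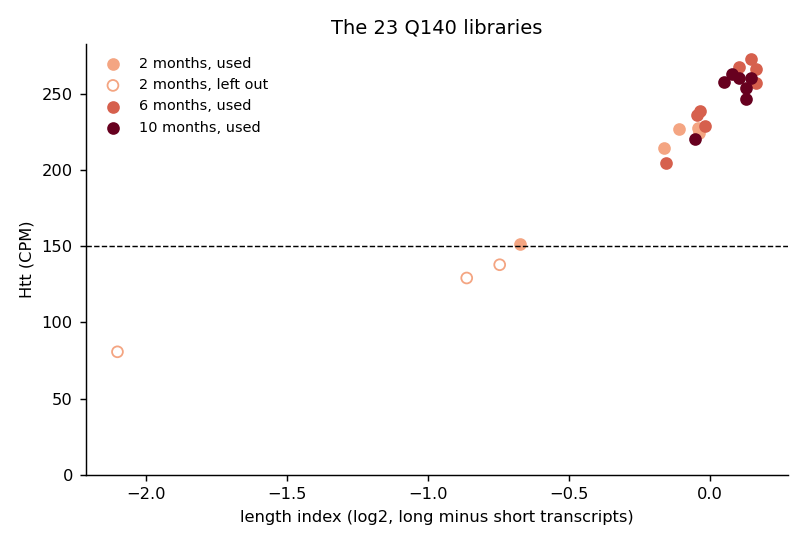
Htt level (CPM, vertical axis) against the length index (horizontal axis, log2, long minus short transcripts) in the 23 Q140 libraries, filled where used and open where left out, with the limit of 150 CPM as a dashed line. The 2-month library M1 lies at 151 CPM and -0.671, next to the 3 libraries left out.

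Between 2 and 10 months the Q140 cerebellum gained transcripts of interferon response, complement and microglia and lost transcripts of the carbonic anhydrase gene Car9, the Ras regulator Rasal1 and part of the myelin genes. In edgeR's quasi-likelihood fit over 16246 genes, 3532 genes passed an adjusted p of 0.05 (21.7% of genes tested), of which 1595 were higher (9.82%) and 1937 lower (11.9%) at 10 months. Most changes were small, with 486 genes over 1.5-fold and 136 over 2-fold. Without M1 of 2 months 1290 genes passed, 4.34% of genes higher and 3.61% lower, and counts of list members without M1 are to be read beside these shares. The genes called higher were also longer, with a median effective length of 4369 bases against 1537 for those called lower and 2627 for all genes, and 3610 against 1785 bases without M1. Genes called in controls between the same ages had 3618 bases if higher and 1860 if lower. The part of transcript length in the calls was not tested beyond these values and the fit with the length index as a covariate, which called 1373 genes, 866 of them among the 3532. The 10 higher and 10 lower genes named by rule also passed without M1 and with the length covariate.

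Among the genes that rose, Zc3hav1, an antiviral zinc-finger protein that binds viral RNA, had the smallest p. It stood at 10.3, 11.2, 9.28, 9.43 and 9.97 CPM in F1, F3, F4, M1 and M2 at 2 months, at 15.6, 16.2 and 18.7 CPM (lowest, median, highest) at 6 months and at 19.4, 21.4 and 23.4 CPM at 10 months. The 3 ages did not overlap, and the log2 change from 2 to 10 months was 1.10 ± 0.0782 (SE, adjusted p = 2.75e-16, edgeR; on this scale 1 is a 2-fold change). In controls the change of Zc3hav1 was 0.84 ± 0.0498. C4b, complement component 4, rose by 1.60 ± 0.144 (adjusted p = 3.14e-12). Its values were 9.40, 12.1, 11.02, 12.1 and 10.8 CPM at 2 months, 15.3, 19.2 and 28.6 CPM at 6 months and 25.9, 33.1 and 40.8 CPM at 10 months. All 10-month libraries lay above all 2-month libraries, the highest 6-month value was that of F3, and controls rose by 1.37 ± 0.0922.

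Parp4, of the poly(ADP-ribose) polymerase family and part of cytoplasmic vault particles, rose by 0.76 ± 0.0773, from 22.45 to 35.2 CPM at 2 months to 44.0 to 54.6 CPM at 10 months. Abca8a, a lipid transporter of the ABC family, rose by 1.14 ± 0.117 and Sqor, a mitochondrial enzyme that oxidises sulfide, by 0.77 ± 0.0877. Mcm6, a subunit of the replicative helicase, rose by 0.61 ± 0.0685, and Fam163b by 1.52 ± 0.169. For Parp4, Abca8a, Sqor, Mcm6 and Fam163b the 2-month and 10-month libraries did not overlap. Controls rose too in these genes, by 0.56, 1.2, 0.51, 0.39 and 1.22 in the same order.

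The gene with the smallest p among those that fell was Car9, a membrane-bound carbonic anhydrase known as a target of hypoxia signalling. It stood at 12.1, 9.59, 12.9, 13.7 and 11.1 CPM in F1, F3, F4, M1 and M2 at 2 months, at 6.198, 6.91 and 8.17 CPM (lowest, median, highest) at 6 months and at 3.77, 4.54 and 5.45 CPM at 10 months. No library of one age reached the range of another, and the log2 change was -1.33 ± 0.112 (adjusted p = 2.62e-13, edgeR). In controls Car9 changed by -0.74 ± 0.0718. The difference of the age changes was -0.60 ± 0.134 with an adjusted p of 0.0637, so it did not pass in edgeR's fit. It passed in 8 of 79 alternatives, DESeq2 among them (adjusted p = 0.0161), with a range of 0.0161 to 0.399. Rasal1, which switches off Ras, changed by -1.15 ± 0.115, from 11.6 to 14.9 CPM at 2 months to 4.92 to 7.59 CPM at 10 months without overlap, and by -0.82 ± 0.0738 in controls.

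The maternally imprinted gene Mkrn3, which encodes a ubiquitin ligase, changed by -1.16 ± 0.111, and Zfp57, which guards methylation at imprinted loci in the embryo, by -1.08 ± 0.109. Mkrn3 lay at 4.56 to 6.16 CPM at 2 months and 1.82 to 3.39 CPM at 10 months. Zfp57 lay at 7.20 to 8.998 CPM and 2.85 to 4.51 CPM. Neither gene overlapped between the ages, and controls changed by -1.21 and -1.14. The other named genes that fell were Necab3 (-0.80), a neuronal calcium-binding protein, the collagen gene Col23a1 (-0.59), the dehydrogenase gene Dhrs11 (-0.73), the tight junction gene Cldn11 (-0.65), Mybpc3 (-0.83), best known as a myosin-binding protein of heart muscle, and the mitochondrial gene Aifm3 (-0.37). Each of these 6 passed at 10 against 2 months in controls as well, with changes of -0.78, -0.76, -0.33, -0.25, -0.67 and -0.25.

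**Figure D2:**
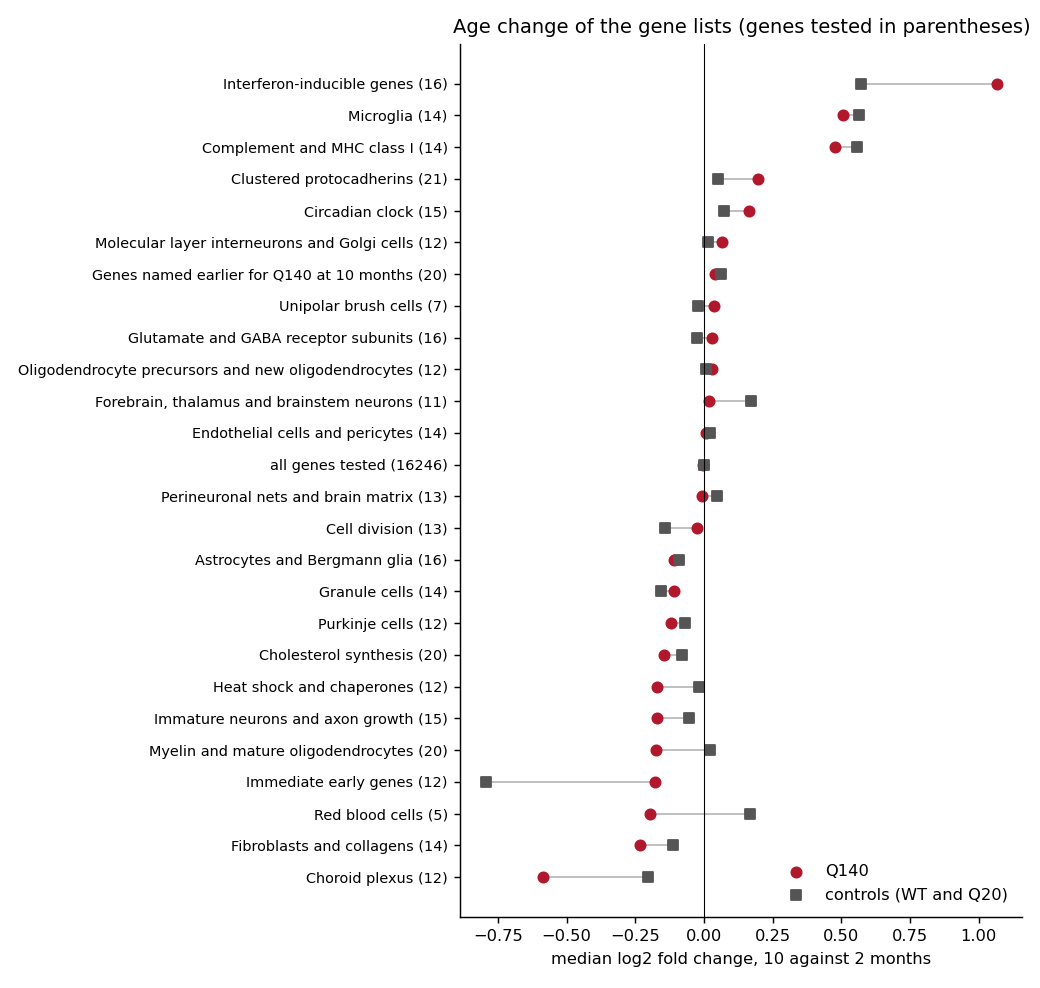
Median log2 fold change of 10 against 2 months over the genes of each list, in Q140 (circles) and controls (squares), with the number of genes tested in parentheses. Interferon-inducible genes had the highest median in Q140 (1.07, controls 0.57), the microglia list was at 0.51 and 0.57, and the myelin list at -0.17 and 0.02.

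Interferon-inducible genes formed the list with the highest median. Of 16 genes, 13 rose and 0 fell between 2 and 10 months, with a median change of 1.07 against 0.00 over all genes tested. Of all genes tested, 9.82% rose. In 12 of 16 genes the 10-month libraries lay above all 2-month libraries, where 3.24% of all genes did so. Without M1 the count was again 13. In controls 12 of 16 rose, with a median of 0.57, where 14.6% of all genes rose. The difference of the age changes (Q140 minus controls) was above 0 in 15 of 16 genes, with a median of 0.56. Of all 16246 genes, 7604 were above 0. Genes of one list come from the same libraries and are not independent, and only Ifi203 passed the test of that difference. The summed level of the list was 125.5, 130.5 and 145.7 CPM (lowest, median, highest) at 2 months, 132.1, 145.5 and 188.7 CPM at 6 months and 186.6, 235.8 and 297.3 CPM at 10 months. The 6-month maximum was again F3, and the sums of 2 and 10 months did not overlap. In bulk tissue, more cells of a type and more RNA per cell cannot be told apart.

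Ifit1, which binds viral RNA that lacks a host cap, stood at 3.12, 3.35, 2.82, 3.88 and 2.19 CPM in F1, F3, F4, M1 and M2 at 2 months. At 6 months its lowest, median and highest values were 2.90, 3.28 and 8.24 CPM, and at 10 months 7.90, 10.9 and 14.4 CPM. Only F3 of 6 months reached the 10-month range, and no 2-month library did. The change from 2 to 10 months was 1.74 ± 0.347 (adjusted p = 0.000283, edgeR). It was 0.38 ± 0.335 from 2 to 6 months (adjusted p = 0.485) and 1.36 ± 0.290 from 6 to 10 months (adjusted p = 0.00613), and without F3 0.10 and 1.62. In controls Ifit1 rose by 1.09 ± 0.220, and a few control libraries of 10 months were higher than any of Q140, up to 15.6 CPM in WT and 20.9 CPM in Q20.

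Oasl2, of the oligoadenylate synthetase family, stood at 4.16, 3.59, 3.39, 3.70 and 4.50 CPM at 2 months. Its values were 3.58, 4.61 and 8.36 CPM at 6 months and 6.30, 11.7 and 17.8 CPM at 10 months. The 2-month and 10-month libraries did not overlap, and the change was 1.60 ± 0.314 (adjusted p = 0.000229). Usp18, a brake on interferon signalling, rose by 1.56 ± 0.345, and its 10-month library M2 (1.42 CPM) lay within the 2-month range (0.873 to 1.62 CPM). Ifi204, a DNA sensor of low level here, rose by 1.96 ± 0.301, from 0.218 to 0.447 CPM at 2 months to 0.805 to 1.81 CPM at 10 months. The signalling gene Irf7 rose by 1.36 ± 0.339, Ifit3 by 1.44 ± 0.270, Rtp4 by 1.12 ± 0.253, Isg15, a ubiquitin-like modifier, by 1.01 ± 0.285, Xaf1 by 0.93 ± 0.153 and Ifi27 by 0.81 ± 0.207. Irf9, Ifitm3 and Bst2 did not pass, at 0.24, 0.25 and 0.45. By rule, the list gave Ifi203, Mndal, Ifi204 and Xaf1 as its 4 named genes, and the others were named after their values were seen.

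Ifi203, a member of the DNA-binding Ifi200 family, stood at 5.95, 5.18, 5.57, 5.06 and 4.89 CPM in F1, F3, F4, M1 and M2 at 2 months. It reached 6.62, 8.19 and 10.0 CPM (lowest, median, highest) at 6 months and 8.89, 11.2 and 14.9 CPM at 10 months. All libraries of 6 and 10 months lay above all of 2 months. The change from 2 to 10 months was 1.14 ± 0.118 (adjusted p = 1.46e-10), and in controls, with means of 6.38 and 7.21 CPM in WT and 5.86 and 7.70 CPM in Q20, it was 0.29 ± 0.0747. The difference of these age changes was 0.85 ± 0.138 (adjusted p = 0.00052). Mndal, of the same family, had 3.33, 3.58, 3.08, 4.21 and 2.73 CPM at 2 months, 3.37, 4.77 and 5.25 CPM at 6 months and 5.74, 6.17 and 7.57 CPM at 10 months. Its 10-month libraries lay above those of both earlier ages, with a change of 0.97 ± 0.145 (adjusted p = 2.35e-06) in Q140 and 0.20 ± 0.0940 in controls. Its difference of 0.77 ± 0.172 had an adjusted p of 0.0637 and passed in 11 of 79 alternatives (0.0161 to 0.678), among them without M1 (adjusted p = 0.0326). On GRCm38, Ifi203 (chromosome 1, 173920407 to 173942672, minus strand) lies largely within the annotated span of Mndal (chromosome 1, 173849126 to 173942491, minus strand). No source used here says how reads were divided between these related genes, and their separate values are uncertain.

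**Figure D3:**
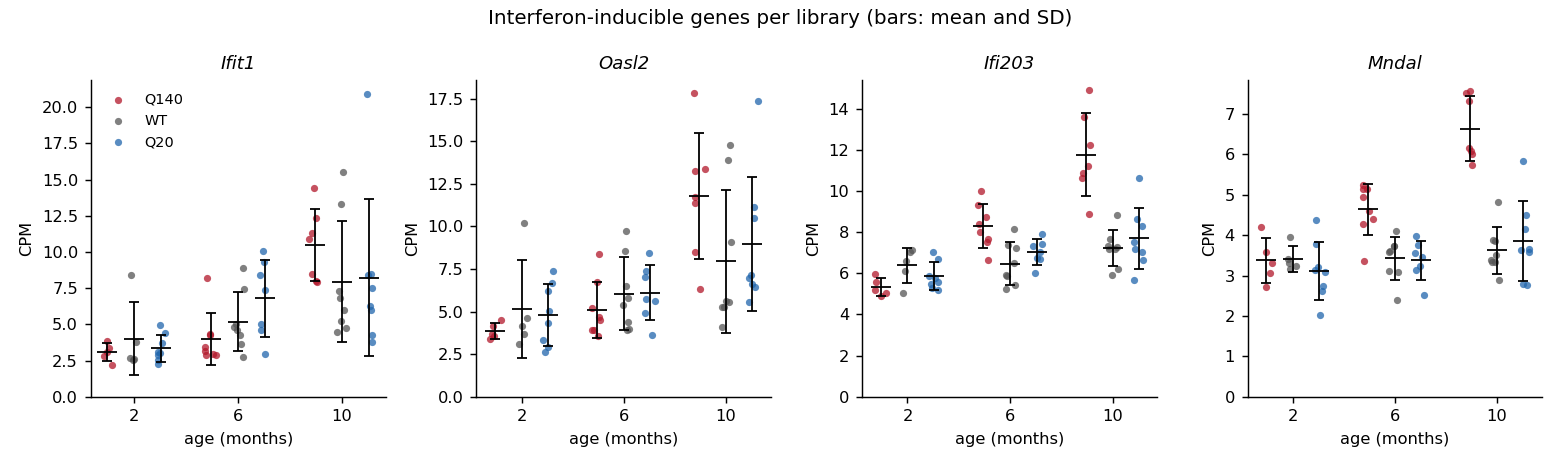
Level of Ifit1, Oasl2, Ifi203 and Mndal (CPM, vertical axes from 0) in each library by age (months), for Q140, WT and Q20, with mean and SD as bars. The Q140 libraries of 10 months lie above those of 2 months in all 4 panels, and F3 is the highest Q140 library of 6 months in Ifit1 (8.24 CPM) and Oasl2 (8.36 CPM).

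The promoters of this list were examined because the members moved together. The interferon-stimulated response element is a repeat of GAAA, searched here as GAAANNGAAA on both strands (TTTCNNTTTC on the other), where overlapping matches count. In RefSeq promoter windows on GRCm38.p6, from 250 bases before to 50 after the start, 11 of 16 list genes were matched. Of the 11, 7 held a match (63.6%), against 1079 of 27025 genes with a window (3.99%) and 431 of 11954 genes tested here (3.61%). The 7 were Ifi203, Mndal, Ifit1, Ifit3, Isg15, Ifitm3 and Bst2. In the windows of Irf7, Irf9, Oasl2 and Xaf1 these letters were not found, and the others, among them Ifi204, Ifi27, Rtp4 and Usp18, had no entry. A second RefSeq window of Mndal, from another start, held a different match, and that of Ifi203 held none. A match is a description of sequence. Ifitm3 and Bst2 held matches and did not pass the test, and Oasl2 and Xaf1 held none and rose. The windows below are of Ifit1 (chr19:34640639-34640938, plus strand), Isg15 (chr4:156200769-156201068, minus strand), Ifi203 (chr1:173942443-173942742, minus strand) and Mndal (chr1:173880138-173880437, minus strand), chosen to show a tandem pair, an overlapping run of 3 and a single match in 1 of the 2 windows each of the neighbours Ifi203 and Mndal, with matches in capitals.
Ifit1: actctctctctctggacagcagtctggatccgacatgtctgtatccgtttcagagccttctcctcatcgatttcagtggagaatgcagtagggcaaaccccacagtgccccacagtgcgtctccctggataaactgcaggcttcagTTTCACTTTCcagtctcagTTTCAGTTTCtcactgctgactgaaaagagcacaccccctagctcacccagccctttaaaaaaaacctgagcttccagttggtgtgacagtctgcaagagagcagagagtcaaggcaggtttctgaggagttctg
Isg15: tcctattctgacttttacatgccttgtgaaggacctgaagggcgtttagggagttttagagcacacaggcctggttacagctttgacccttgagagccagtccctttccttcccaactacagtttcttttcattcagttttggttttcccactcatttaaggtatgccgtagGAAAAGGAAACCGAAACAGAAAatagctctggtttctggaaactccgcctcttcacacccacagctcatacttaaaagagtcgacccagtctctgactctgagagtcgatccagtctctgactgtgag
Ifi203: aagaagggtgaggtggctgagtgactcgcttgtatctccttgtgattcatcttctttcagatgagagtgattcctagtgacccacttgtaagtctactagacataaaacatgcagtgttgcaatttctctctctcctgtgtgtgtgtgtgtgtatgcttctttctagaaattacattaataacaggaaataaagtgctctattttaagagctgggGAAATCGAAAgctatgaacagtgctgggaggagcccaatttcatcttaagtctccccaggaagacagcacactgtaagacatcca
Mndal: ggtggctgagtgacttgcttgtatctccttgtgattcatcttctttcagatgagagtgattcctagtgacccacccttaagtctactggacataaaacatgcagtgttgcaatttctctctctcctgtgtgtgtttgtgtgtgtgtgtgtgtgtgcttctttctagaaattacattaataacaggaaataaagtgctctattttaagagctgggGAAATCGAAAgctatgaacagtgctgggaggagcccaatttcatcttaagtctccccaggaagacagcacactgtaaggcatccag
The first match begins at position -104 from the start in Ifit1, -78 in Isg15, -35 in Ifi203 and -36 in Mndal. In Ifi203 and Mndal the matched letters are the same, GAAATCGAAA, and the letters around them are largely shared. Whether a match bears on an age change was not tested.

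Microglial genes rose without exception. All 14 genes of the list passed between 2 and 10 months and were higher, with a median change of 0.51, and all 14 passed without M1 (median 0.62). Of all genes tested, 9.82% were higher, and 4.34% without M1. In controls the same 14 passed, with a median of 0.57, where 14.6% of all genes were higher and 15.5% lower. The test of the difference in age change was passed by 0 of 14, and by 0.0246% of all genes. In 5 of 14 genes the 10-month libraries lay above all 2-month libraries, where 3.24% of all genes did so. The summed level was 167 to 205 CPM at 2 months, 210.4 to 251 CPM at 6 months and 238 to 297 CPM at 10 months, so the sums of 2 months lay below those of both later ages.

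Ctss, the lysosomal protease cathepsin S, stood at 23.6, 25.5, 25.4, 28.4 and 29.6 CPM at 2 months, at 33.0, 35.98 and 40.1 CPM (lowest, median, highest) at 6 months and at 40.5, 48.6 and 57.5 CPM at 10 months. The ages did not overlap, and the change was 0.93 ± 0.0895 (adjusted p = 2.46e-11) against 0.95 ± 0.0580 in controls. Cx3cr1, the fractalkine receptor of microglia, lay at 10.00 to 12.7 CPM at 2 months, 15.1 to 18.6 CPM at 6 months and 15.8 to 20.0 CPM at 10 months. The change of Cx3cr1 was 0.57 ± 0.085 from 2 to 6 months and 0.12 ± 0.0751 from 6 to 10 months (adjusted p = 1.04e-05 and 0.351). Csf1r, the receptor on which microglia depend, changed by 0.41 and 0.02 in the same intervals. Tyrobp, a signalling adaptor, changed by 0.14 (adjusted p = 0.437) and 0.44 (adjusted p = 0.0115).

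Of 14 complement and MHC class I genes, 9 rose and 0 fell (median 0.48), where 9.82% of all genes rose. In controls 12 rose (median 0.56), where 14.6% of all genes rose. In Q140 without M1 the count was again 9 (median 0.59), where 4.34% of all genes rose. The summed level was 278 to 358.5 CPM at 2 months, with M1 the highest, 289.3 to 363.4 CPM at 6 months and 344.1 to 398.1 CPM at 10 months, so the sums of 2 and 10 months overlapped. C1qa is also in the microglia list. Besides C4b, the list held C3, the central complement component, at 1.15 ± 0.344, Nlrc5, the activator of MHC class I genes, at 1.16 ± 0.257 and B2m, the light chain of MHC class I, at 0.44 ± 0.0894. The lowest and highest values of B2m were 70.5 and 90.1 CPM at 2 months and 91.95 and 113 CPM at 10 months, without overlap. Cd74, of MHC class II, was at 0.24 ± 0.248 and did not pass (adjusted p = 0.519).

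Part of the myelin list fell. Of 20 genes of myelin and mature oligodendrocytes, 0 rose and 9 fell between 2 and 10 months, with a median of -0.17, and 8 fell without M1 (median -0.15). Of all genes tested, 11.9% fell, and 3.61% without M1. In 6 of 20 the 10-month libraries lay below all 2-month libraries, where 3.14% of all genes did so. In controls 4 rose and 3 fell, with a median of 0.02, where 14.6% of all genes rose and 15.5% fell. The difference of the age changes was below 0 in 19 of 20 genes with a median of -0.20, where 7604 of all 16246 genes were above 0. For 8 of 20 its unadjusted p was under 0.05, and for 0 its adjusted p was (edgeR), where 1060 of all 16246 genes had an unadjusted p under 0.05. The summed level was 6360 to 7466 CPM at 2 months, 4727 to 7518 CPM at 6 months and 5369 to 7041 CPM at 10 months, with overlap between all ages.

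Mal, a small membrane protein of compact myelin, stood at 139.7, 168, 165, 170.1 and 150.3 CPM in F1, F3, F4, M1 and M2 at 2 months. At 6 months its lowest, median and highest values were 104, 124 and 135 CPM, and at 10 months 109.9, 127 and 139 CPM. The 10-month libraries all lay below the 2-month libraries, by a margin of less than 1 CPM between the closest. The change from 2 to 10 months was -0.31 ± 0.0712 (adjusted p = 0.00122, edgeR), made up of -0.34 ± 0.0690 to 6 months and 0.03 ± 0.0633 after (adjusted p = 0.000831 and 0.848). In controls Mal changed by 0.04 ± 0.0462 (means of 153 and 156 CPM in WT, 159 and 164 CPM in Q20), and the difference of -0.35 ± 0.0850 had an adjusted p of 0.112. It passed in 2 of 79 alternatives, by DESeq2 (adjusted p = 0.0433) and without F1 of 2 months, with a range of 0.0433 to 0.754.

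Cldn11, the tight junction protein of myelin, showed the largest fall of the list, at -0.65 ± 0.0850, from 70.0 to 97.9 CPM at 2 months to 51.3 to 65.4 CPM at 6 months and 49.1 to 59.6 CPM at 10 months. Fa2h, which makes the hydroxylated lipids of myelin, changed by -0.33 ± 0.0724. Ugt8a, an enzyme of myelin galactolipid synthesis, was at -0.30, Car2 at -0.30, Tspan2 at -0.28, Gjc3 at -0.17 and Cnp at -0.16. Mbp and Mobp, which also encode major myelin proteins, were at -0.12 and -0.18 and did not pass (adjusted p = 0.35 and 0.128). For Mobp controls rose by 0.17 ± 0.0550 (adjusted p = 0.0178).

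Il33, a cytokine that oligodendrocytes and astrocytes release, rose with age in controls, and its change in Q140 did not pass the test. In Q140 it stood at 36.4, 40.3, 35.6, 31.8 and 31.8 CPM in F1, F3, F4, M1 and M2 at 2 months, at 28.2, 36.8 and 41.4 CPM (lowest, median, highest) at 6 months and at 31.5, 35.7 and 43.7 CPM at 10 months. These ranges overlapped throughout, and the change was 0.09 ± 0.111 (adjusted p = 0.61). In controls Il33 rose by 0.56 ± 0.0713 (adjusted p = 1.36e-08), from means of 36.3 and 38.3 CPM in WT and Q20 at 2 months to 54.7 and 54.9 CPM at 10 months. Of the Q140 libraries of 10 months, only the highest overlapped the WT range of that age, which began at 42.6 CPM. At 2 months Q140 differed from controls by -0.09 ± 0.0997, and at 10 months by -0.56 ± 0.0870 (adjusted p = 2.13e-05, edgeR). Il33, Tnc and Mal had been named for Q140 at 10 months by an earlier analysis of these same libraries. Their differences at 10 months therefore describe that choice and are not a separate test of it. The difference of the age changes was -0.47 ± 0.131 and did not pass (adjusted p = 0.273, and 0.0841 to 0.819 under the alternatives).

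Tnc, the matrix glycoprotein tenascin C of Bergmann glia and astrocytes, fell in controls by 0.86 on the log2 scale (SE 0.0798), from means of 23.3 and 23.2 CPM in WT and Q20 to 12.8 and 12.7 CPM. In Q140 Tnc stood at 28.9, 22.2, 20.9, 21.4 and 30.4 CPM at 2 months, at 18.5, 24.1 and 34.6 CPM at 6 months and at 16.1, 20.0 and 22.98 CPM at 10 months. The Q140 ages overlapped, and the change of -0.31 ± 0.122 did not pass (adjusted p = 0.0562). It passed in 8 of 78 alternatives, with a range of 0.0152 to 0.351. These were the choroid plexus mean as a covariate, all 7 lines in one fit, and the omission of single libraries. The libraries were F3 or F4 of 2 months, F3 or M2 of 10 months, F4 of 6 months or the Q20 library M1 of 2 months. At 10 months Q140 was higher than controls by 0.64 ± 0.0946 (adjusted p = 1.38e-05, edgeR), and at 2 months by 0.09 ± 0.110 (adjusted p = 0.909). As for Il33, the 10-month value comes from the libraries on which Tnc was chosen. The difference of the age changes was 0.55 ± 0.147 (adjusted p = 0.228).

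**Figure D4:**
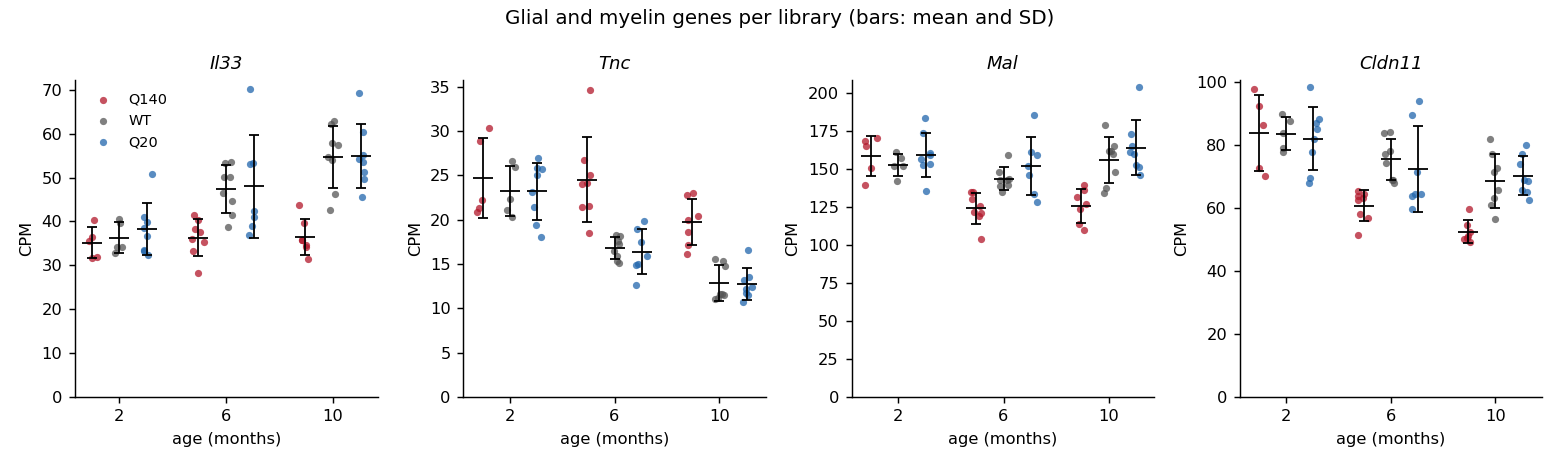
Level of Il33, Tnc, Mal and Cldn11 (CPM, vertical axes from 0) in each library by age (months), for Q140, WT and Q20, with mean and SD as bars. In Q140 Il33 lay between 28.2 and 43.7 CPM at all ages while control means reached 54.7 and 54.9 CPM, and Mal and Cldn11 were lower at 6 and 10 than at 2 months.

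Few genes passed the test of a different age change in Q140 and controls. With 5 Q140 libraries at 2 months, not passing does not show that a gene aged alike. The difference between the age change of Q140 and that of controls passed for 4 of 16246 genes (0.0246%), while DESeq2 called 20. The unadjusted p was under 0.05 for 1060 genes. The 4 were Synpr and Ifi203, which rose more in Q140 (2 genes, 0.0123%), and Mirt1 and Cfap74, which fell in Q140 (2 genes, 0.0123%). Synpr, Ifi203 and Mirt1 had also been named for Q140 at 10 months by an earlier analysis of these libraries. Leaving out a Q140 library changed the count to 2 (M1, M2 or M3 of 10 months), 7 (F3 or M1 of 2 months), 12 (F1 of 2 months) or 16 (F3 of 10 months). Leaving out a control library gave 2 (WT M3 of 2 months, WT F4 of 10 months, Q20 M3 of 2 months), 8 (WT M2 of 10 months, Q20 F1 of 6 months), 9 (Q20 M4 of 2 months) or 12 (Q20 F5 of 10 months).

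Synpr encodes synaptoporin, a membrane protein of synaptic vesicles (ENSMUSG00000056296, chromosome 14, 13284780 to 13616340, plus strand). It stood at 91.9, 86.8, 87.8, 86.5 and 79.4 CPM at 2 months, at 90.5, 96.0 and 106.5 CPM (lowest, median, highest) at 6 months and at 109.3, 119 and 128 CPM at 10 months. The 10-month libraries lay above all libraries of 2 and 6 months, and the change was 0.49 ± 0.0550 (adjusted p = 2.58e-09), of which 0.18 came before and 0.30 after 6 months. Control means went from 86.9 to 92.9 CPM in WT and from 87.2 to 88.1 CPM in Q20, a change of 0.06 ± 0.0353. The difference of 0.43 ± 0.0651 (adjusted p = 0.000246) passed under all 79 alternatives. Mirt1, a long noncoding RNA (chromosome 19, 53443230 to 53464796, minus strand), went from 29.8 to 40.2 CPM at 2 months to 25.45 to 31.5 CPM at 6 months and 23.1 to 26.8 CPM at 10 months. Its 2-month and 10-month libraries did not overlap, and the difference from controls in age change was -0.52 ± 0.102 (adjusted p = 0.0211), lost in 10 of 79 alternatives.

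Cfap74, a protein of the central apparatus of cilia, stood at 10.8, 11.45, 11.25, 9.92 and 15.4 CPM at 2 months and at 7.93, 8.41 and 9.66 CPM at 10 months. M2 of 2 months stood above the other 4 libraries. The difference from controls in age change was -0.52 ± 0.108 (adjusted p = 0.0497) and was lost in 48 of 79 alternatives. The Ifi203 difference was lost in 1 of 79.

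The midpoint divides the interval unevenly between gene groups. From 2 to 6 months 1910 genes passed (11.8%; 875 higher, 5.39%, and 1035 lower, 6.37%), and 343 without M1. From 6 to 10 months 640 passed (3.94%; 251 higher, 1.54%, and 389 lower, 2.39%). This last count moved with single libraries. It was 165, 169, 281 and 321 without M1, F2, M2 or M4 of 10 months, and 204, 264, 315, 346 and 377 without M1, F3, M2, F4 or M4 of 6 months. It was 1205, 1212 and 1182 without F3 of 10 months, F2 of 6 months or M3 of 6 months. Both intervals share the 6-month libraries, so a high level in them raises the first change and lowers the second.

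Interferon-inducible genes rose mostly after 6 months. In the first interval 2 of 16 passed (Ifi203 and Mndal, median 0.29), and in the second 12 of 16 (median 0.74), which was 11 without F3. The second change exceeded the first in 15 of 16 genes, against 47.4% of all genes, and the difference between the intervals was not tested. Trim12a, of a family of antiviral ubiquitin ligases, changed by -0.07 ± 0.105 in the first and 0.61 ± 0.0946 in the second interval (adjusted p = 0.000166). Its range was 2.97 to 3.64 CPM at 2 months, 2.10 to 3.90 CPM at 6 months and 4.28 to 5.32 CPM at 10 months, so the 10-month libraries stood above all others.

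The microglial list showed 6 of 14 genes higher in the first interval (median 0.26) and 4 in the second (median 0.23). The myelin list showed 6 of 20 lower in the first (median -0.14) and 0 in the second (median -0.03), and without F3 of 6 months 3 and 0. The named genes of the first interval besides those above were Tpbg, a cell surface glycoprotein, and Ptk2b, a calcium-activated kinase, which rose by 1.43 ± 0.162 and 1.16 ± 0.144, and the neuronal gene Nrep at -0.43. Tpbg stood at 27.2 CPM in F3 against a 6-month median of 12.9 CPM, Ptk2b at 19.1 against 9.14 CPM, and Fam163b at 26.6 against 10.6 CPM. Without F3 Tpbg, Ptk2b and Fam163b still rose, by 1.24, 1.0 and 1.02.

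Other genes of the 6-month group rested on F3. Nrgn, a postsynaptic protein of forebrain neurons, was at 2.21 and Lhx9 and Tcf7l2, transcription factors of thalamus, at 1.85 and 1.53 from 2 to 6 months, and without F3 they were at -0.30, 0.32 and 0.27 and did not pass. In the second interval Nrgn was at -2.74, and without F3 at -0.29 (adjusted p = 0.386). From 6 to 10 months the collagen genes Col1a1 and Col4a1 changed by -0.63 ± 0.114 and -0.49 ± 0.0914. Col1a1 stood at 5.45 to 9.66 CPM at 6 months and 4.06 to 5.47 CPM at 10 months, with a narrow overlap, and without F3 it changed by -0.58.

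**Figure D5:**
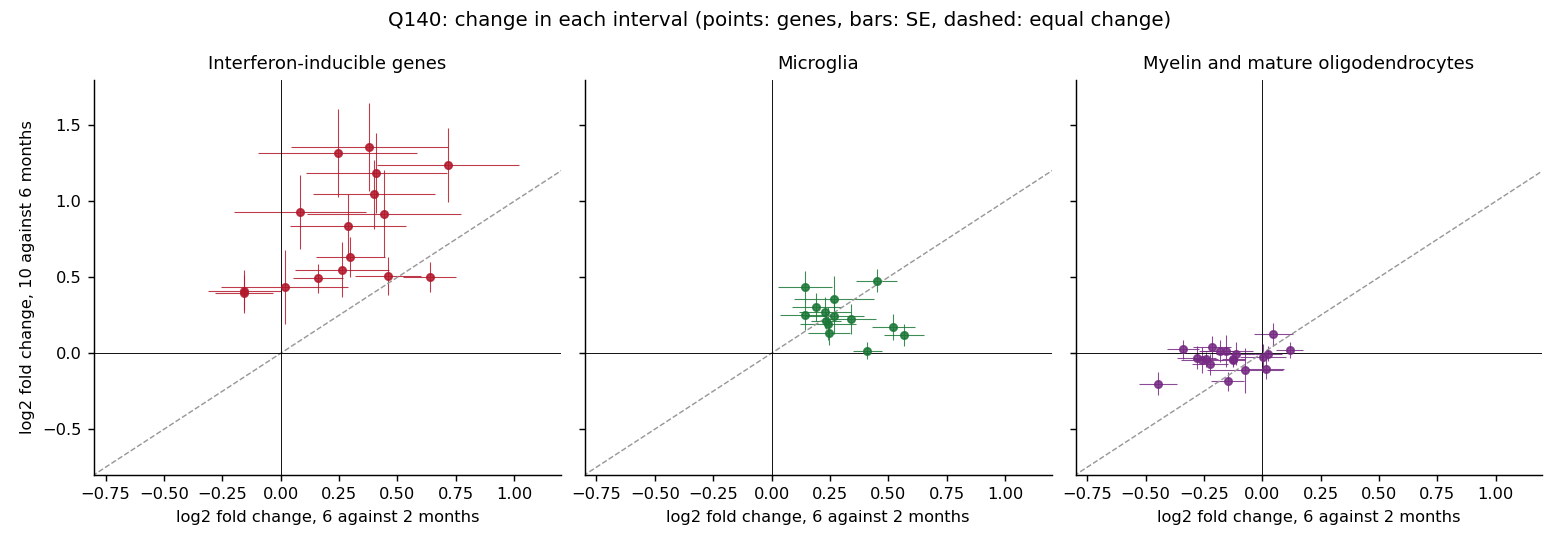
Log2 fold change of each gene in Q140 from 2 to 6 months (horizontal axis) and from 6 to 10 months (vertical axis), with SE as bars, for the interferon-inducible, microglia and myelin lists. Of the interferon-inducible genes 15 of 16 lie above the dashed line of equal change, and the myelin genes lie near 0 on the vertical axis. Enpp2, also a choroid plexus gene, is not drawn.

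Counts of the neuronal and activity-related lists stand beside the shares over all genes, 9.82% higher and 11.9% lower with M1 and 4.34% and 3.61% without it, so a smaller count without M1 is not particular to a list. Of 14 granule cell genes, 1 rose and 6 fell (median -0.11), and 0 and 4 did without M1. Grm4 showed the largest change of them: it stood at 349, 342, 378, 361 and 398 CPM at 2 months, at 232, 325 and 414 CPM at 6 months and at 172, 221 and 254 CPM at 10 months. The 10-month libraries lay below all 2-month libraries, and Grm4 changed by -0.74 ± 0.114 in Q140 and -0.46 ± 0.0737 in controls. Of 12 Purkinje cell genes 5 fell, and 0 without M1. Pcp2 stood at 213, 221, 243, 337 and 253 CPM at 2 months, with M1 the highest, and at 149.5 to 236 CPM at 10 months.

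Of 12 immediate early genes, 0 rose and 4 fell (Egr4 -0.89, Ier2 -0.85, Junb -0.82 and Nab2 -0.61), and 2 fell without M1. In controls 11 of 12 fell, where 15.5% of all genes fell, with a median of -0.79 against -0.18 in Q140. Ier2 stood at 11.6, 10.7, 8.43, 14.5 and 12.6 CPM at 2 months and at 3.96, 6.18 and 8.56 CPM (lowest, median, highest) at 10 months, with overlap of F4. Of 12 chaperone genes 4 fell and 0 without M1. Hspa1b, an inducible heat shock protein, stood at 2.40, 6.03, 5.52, 8.61 and 4.54 CPM at 2 months and 1.76 to 4.43 CPM at 10 months, with M1 again highest and overlap between the ages.

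Of 14 fibroblast and collagen genes 0 rose and 6 fell (median -0.23, and 5 without M1), among them Col3a1 at -0.74. Of 20 cholesterol synthesis genes 6 fell (median -0.14), and 4 without M1. Of 15 genes of immature neurons and axon growth 5 fell, and 2 without M1. Over all genes 11.9% fell, and 3.61% without M1. Fabp7, the brain lipid-binding protein of radial and Bergmann glia, changed by -0.68 ± 0.142, while Gfap, the astrocyte filament protein, was at 0.22 ± 0.0850 and did not pass (adjusted p = 0.0528). Gpr17, a receptor of oligodendrocyte precursors, changed by -0.66 ± 0.119, with 16.6 to 20.7 CPM at 2 months and 9.30 to 13.6 CPM at 10 months, and Enpp6, a marker of newly formed oligodendrocytes, by 0.45 ± 0.132. Controls changed by -0.76, -0.68 and 0.19 for Fabp7, Gpr17 and Enpp6. Of 12 choroid plexus genes 0 passed, at a median of -0.59, with summed levels from 180 to 2427 CPM at 2 months and 178 to 3821 CPM at 10 months.

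Set against controls of the same age, more genes passed at 10 months than at 2 months. The median absolute log2 difference over all genes tested was 0.059 at 2 months and 0.053 at 10 months. With 5 Q140 libraries at 2 months and 7 at 10 months, the counts below are not sizes of difference. At 2 months 1 gene passed (0.00616%), the predicted gene Gm5067 at 1.66. DESeq2 called 1 gene, and 814 had an unadjusted p under 0.05. Leaving out F3 of 2 months gave 0, and leaving out F3 of WT at 2 months gave 2. At 10 months 249 passed (1.53%; 143 higher, 0.88%, and 106 lower, 0.652%), and 160, 159 and 157 without F1, F2 or M2 of Q140 at 10 months. At 10 months Ttr exceeded 100 CPM in 1 of 7 Q140, 5 of 8 WT and 7 of 8 Q20 libraries. Adjusting for the mean level of choroid plexus genes gave 201 genes at 10 months, of which 153 were among the 249. The list counts that follow are from the main fit, and list counts with this adjustment are not given. The myelin list at 10 months had 9 of 20 genes lower and 0 higher, with a median of -0.22 and all 20 below 0. The microglia list had 0 of 14 on either side. Of the interferon-inducible list, 2 of 16 were higher (Ifi203 and Mndal). Controls themselves changed in 4895 genes between 2 and 10 months (30.1%; 2373 higher, 14.6%, and 2522 lower, 15.5%), with 13 libraries at 2 months against 5 of Q140. The number of genes called in Q140 and in controls therefore cannot be compared as sizes of change.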

How the data were processed

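Poly(A) RNA of mouse cerebellum was sequenced by the authors. Per gene and library, the authors deposited expected counts, 83.3% of them whole, and FPKM. The submitters' processing notes name CASAVA 1.8.2 alone. Aligner, counting program, use of strand and genome build were not given in the sources used here. Reads of overlapping or near-identical genes may therefore have been split.

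Expected counts were rounded and fitted with edgeR 4.0.16 in R 4.3.3 (a two-sided quasi-likelihood test after TMM scaling, with Benjamini-Hochberg adjusted p over the 16246 genes with 0.5 CPM in at least 5 libraries, threshold 0.05). One fit held 64 libraries in 9 groups of line and age, with sex as a covariate. SE was obtained from the log2 fold change and its F statistic. WT and Q20 were averaged as controls, and the difference of age changes is a contrast of that fit. Library totals of 28248612 to 41372973 mean that 1 CPM is at least 28 counts. Nothing in the labels says that libraries came from other than single mice, and p-values measure the spread between these libraries. In 1 control library the sex markers went against the label, which was kept.

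The groups, members and gene lists were chosen with earlier results of these data known. Genes named are Htt, Il33, Tnc and Mal, the 10 higher and 10 lower genes of smallest p that passed and averaged 1 CPM or more (4 and 4 for each part of the interval, up to 8 and 8 for the difference of age changes), without Gm and Rik symbols, Xist and genes on Y, and up to 4 genes per list by the same p. Other genes were named after their values were seen. Lists are described by counts and medians. Gene symbols were matched for 37607 of 39179 IDs, and positions are those of GENCODE vM21 on GRCm38 for the same ID. Alternatives were DESeq2 1.42.0, limma 3.58.1 on log2(FPKM + 0.1), other normalisation, filters, Htt limits, controls and covariates, and leaving out each library. In 54 pairs of same-numbered libraries, correlations of deviations from the group means ran from -0.421 to 0.459, and 28 were over 0.1. Differently numbered pairs were not computed and same-numbered pairs share sex, so these values cannot decide whether numbers pair mice. The main fit did not pair libraries, and a block for replicate number was an alternative. No libraries were identical. A few list members are counted in their lists and not reported by name here.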

Additional observations from a re-analysis of the deposited data

Results flagged for a closer look

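The difference between the age change of Q140 and that of controls (10 against 2 months, log2) passed for 4 genes: Synpr at 0.43 (0.4274), Ifi203 at 0.85 (0.8538), Mirt1 at -0.52 (-0.5179) and Cfap74 at -0.52 (-0.5169). Their values and limits are given above.

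The 31 genes examined were partly chosen after their values were seen, and genes of one library are not independent. No chance rate is therefore set beside the count. Of 93 groups of libraries in these genes, 9 held a library far from the others. Of these, 5 were the 6-month library F3: Nrgn at 61.03 CPM (next library 1.717), Tpbg at 27.25 (next 14), Fam163b at 26.55 (next 12.54), Ptk2b at 19.09 (next 12.2) and Ifit1 at 8.235 (next 4.331). The others were Cfap74 in M2 of 2 months at 15.42 CPM (next 11.45), Mkrn3 in F3 of 2 months at 4.563 (next 5.742), Zfp57 in F2 of 10 months at 2.854 (next 3.889) and Hspa1b in F3 of 10 months at 4.431 (next 2.728). The list of forebrain, thalamus and brainstem genes also summed highest in the 6-month F3, at 350.6 CPM, and the part of that material in its other values was not tested.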

How the results depend on the processing

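Numbers of genes past the threshold are given in the order 10 against 2 months, 6 against 2 and 10 against 6 months in Q140, 10 against 2 months in controls, the difference of age changes at 10 and at 6 months (the latter against Q20), and Q140 against controls at 2 and 10 months. They were 3532, 1910, 640, 4895, 4, 0, 1 and 249 (715 genes at an unadjusted p under 0.05 beside the 0). Keeping all libraries gave 7324, 6092, 113, 5795, 3, 1903, 2 and 56, and a minimum of 200 CPM of Htt 1830, 606, 1105, 4398, 6, 1, 1 and 364. The length index as a covariate gave 1373, 1419, 1444, 4032, 11, 1, 3 and 534, and the choroid plexus mean 4229, 2259, 1112, 4420, 9, 1, 1 and 201. Leaving out the libraries of length index under -0.3, an alternative chosen after seeing the data, gave 2310, 775, 1515, 5355, 7, 2, 2 and 388. DESeq2 gave 3661, 2167, 851, 5063, 20, 0, 1 and 335, all 7 lines in one fit 4191, 2474, 1007, 5468, 16, 0, 1 and 357, and no filter 2810, 1421, 343, 4483, 3, 0, 1 and 193. A fit of Q140 alone gave 3001, 1088 and 141. With WT alone as controls the last counts were 1480 (controls), 2, 2 and 93, and with Q20 alone 2412, 1, 0 and 203. With a stricter filter of 1 CPM the 2-month count was 0. The cause of these shifts was not tested.

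With the replicate block, used because pairing by number was not settled, the counts were 2772, 1500, 629, 4346, 6, 0, 1 and 215. Leaving out each library in turn gave 1290 (without M1 of 2 months) to 4197, 343 (without M1) to 2464, 165 to 1212, 3818 to 5770, 2 to 16, 0 to 1 (1 without M1 of Q140 at 2 months or F1 of Q20 at 6 months), 0 to 2, and 157 to 302 in the same order. Of 113 results for single genes, 0 changed direction under any alternative, and of 259 losses of the threshold the settings with the highest counts were the length covariate (31), leaving out M1 (25) and the 200 CPM limit (18). With 5 libraries at 2 months, one of them close to the limit, small changes from 2 months are the least certain.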

Other observations

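Of 21 clustered beta protocadherin genes, which code for adhesion proteins of neurons, 6 rose and 1 fell in Q140 between 2 and 10 months, and 5 and 0 did without M1 of 2 months. Over all genes 9.82% rose and 11.9% fell, and 4.34% and 3.61% did without M1. Of 15 circadian clock genes 5 rose and 1 fell, and 3 and 1 did without M1. Of 12 genes of oligodendrocyte precursors and new oligodendrocytes, 3 rose and 3 fell, and 0 and 1 did without M1.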
